A study of Mus musculus with 9 samples.

Results

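The genes described here are the Rab GTPases and the genes of vesicle sorting named Vps and Snx. They were taken from the GENCODE M1 annotation of the mouse as all protein-coding genes with a symbol made of Rab, a number and an optional letter, of Vps and a number, or of Snx and a number, with optional letters after it. This gave 118 gene records of 22367 protein-coding genes, namely 56 Rab, 31 Vps and 31 Snx records. They carry 116 symbols, because Vps13d and Snx29 each have 2 gene identifiers. Each gene was scored by the BAP1 peaks whose middle lay within 1 kb of any of its transcription start sites (TSSs), and such a peak is called gene-proximal.

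BAP1 was mapped by ChIP-Seq in Ba/F3, a mouse line of B cell precursors that is cultured with IL-3, and 13164 peaks were deposited as a single list. ChIP-Seq recovers the chromatin fragments that a protein is bound to and sequences their DNA. The first of the 2 samples behind the list was wild type Ba/F3 with an antibody to BAP1 itself. The second was Ba/F3 under puromycin selection that stably expressed murine BAP1 with a triple FLAG tag, with an antibody to FLAG. The promoter of the tagged BAP1 and its level beside the BAP1 of the cells themselves are not given in the sources used here. The 9 samples of the series also include 3 for H2AK119ub, from wild type cells and from knockout clones KO3 and KO4, and 4 of input DNA, which were not analysed here. Every peak in the list is 200 bp wide and has no height, score or sample of origin. The depth is unknown and no value below has a replicate error, so shares are counts over annotated genes, set beside the same counts over all protein-coding genes, and no test was made. Expression was not measured in these samples, and whether a gene without a peak is expressed in Ba/F3 was not tested.

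Rab proteins are small GTPases that mark the membranes of the secretory and endocytic pathways. In the GTP-bound form each recruits its own effectors, such as tethers and motors, and exchange factors and GTPase-activating proteins switch it on and off. The Vps genes are named after yeast mutants in vacuolar protein sorting and encode subunits of the complexes that act on these membranes. Of these, CORVET and HOPS tether endosomes and lysosomes, retromer returns cargo from endosomes, ESCRT buds vesicles into endosomes, and GARP tethers vesicles at the Golgi. Sorting nexins (Snx) bind phosphoinositides through a PX domain, and those with a BAR domain also shape membrane tubules. BAP1 is the deubiquitinase that removes ubiquitin from lysine 119 of histone H2A at chromatin.

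The peak sequences were read from the NCBIM37 (mm9) genome and searched on both strands for 10 short motifs of promoter-binding factors. The first 4 below are printed because they hold TCACGTGA, the core of the CLEAR element that TFEB and TFE3 recognise in genes of lysosomes. They are the nearest peaks of Rab5a (chr17:53618455-53618654, plus strand), Rab24 (chr13:55423250-55423449, minus strand), and Vps11 and Vps33a, both subunits shared by HOPS and CORVET (chr9:44169693-44169892 and chr5:124022957-124023156, minus strand). Each runs 5′ to 3′ on the strand of its gene, and capitals mark every match to a searched motif.
Rab5a: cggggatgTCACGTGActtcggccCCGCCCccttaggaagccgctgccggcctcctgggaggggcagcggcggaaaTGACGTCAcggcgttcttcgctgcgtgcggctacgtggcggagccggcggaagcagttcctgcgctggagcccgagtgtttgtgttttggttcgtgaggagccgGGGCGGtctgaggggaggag
Rab24: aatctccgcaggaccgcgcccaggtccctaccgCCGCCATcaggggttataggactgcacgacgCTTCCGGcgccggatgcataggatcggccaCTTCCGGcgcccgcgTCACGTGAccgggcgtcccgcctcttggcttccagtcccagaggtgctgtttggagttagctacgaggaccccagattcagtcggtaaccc
Vps11: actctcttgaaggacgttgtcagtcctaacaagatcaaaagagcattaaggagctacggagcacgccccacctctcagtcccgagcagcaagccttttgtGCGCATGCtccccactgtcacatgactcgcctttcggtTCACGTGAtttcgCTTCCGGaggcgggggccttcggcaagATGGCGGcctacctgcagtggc
Vps33a: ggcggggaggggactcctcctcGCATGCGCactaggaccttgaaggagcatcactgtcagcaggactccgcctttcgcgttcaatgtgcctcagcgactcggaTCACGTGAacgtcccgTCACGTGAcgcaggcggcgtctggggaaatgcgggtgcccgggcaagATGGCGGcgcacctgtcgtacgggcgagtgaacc
The TSS is base 105 of the Rab5a sequence, base 109 for Rab24, base 140 for Vps11 and base 133 for Vps33a. The CLEAR match starts at base 9 in Rab5a, upstream of the TSS, and at base 110 in Rab24, directly after it. In Vps11 it starts at base 139 and spans the TSS. Vps33a has 2 matches, from bases 104 and 120, both upstream of the TSS. Vps11 and Vps33a also share ATGGCGG, the YY1 motif, downstream of the TSS at bases 179 and 167. Rab24 has the same motif in the other orientation, and CCGGAAG of the ETS factors in the other orientation as well, from bases 65 and 95.

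The next 4 sequences are those of the retromer core, shown because 3 of the 4 genes share the peak with a neighboring gene. They belong to Vps26a (chr10:61949505-61949704, minus strand), Vps26b (chr9:26837594-26837793, minus strand), Vps29 (chr5:122804494-122804693, plus strand) and Vps35 (chr8:87823668-87823867, minus strand).
Vps26a: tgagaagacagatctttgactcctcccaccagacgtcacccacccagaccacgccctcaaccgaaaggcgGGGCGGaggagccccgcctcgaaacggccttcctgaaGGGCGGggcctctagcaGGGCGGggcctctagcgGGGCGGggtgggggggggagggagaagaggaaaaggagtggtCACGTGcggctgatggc
Vps26b: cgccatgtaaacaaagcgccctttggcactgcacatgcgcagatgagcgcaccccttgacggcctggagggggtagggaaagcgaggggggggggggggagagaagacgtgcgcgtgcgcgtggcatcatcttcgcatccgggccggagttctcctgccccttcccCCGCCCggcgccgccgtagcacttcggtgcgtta
Vps29: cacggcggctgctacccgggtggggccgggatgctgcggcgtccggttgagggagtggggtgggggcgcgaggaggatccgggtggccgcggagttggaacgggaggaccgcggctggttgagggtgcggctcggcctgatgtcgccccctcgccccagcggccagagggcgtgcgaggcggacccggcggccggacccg
Vps35: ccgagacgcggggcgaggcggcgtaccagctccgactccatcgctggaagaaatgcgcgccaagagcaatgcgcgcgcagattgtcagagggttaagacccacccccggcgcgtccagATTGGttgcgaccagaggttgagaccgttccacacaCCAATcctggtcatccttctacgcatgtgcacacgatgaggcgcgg
The TSS is base 152 for Vps26a and base 115 for Vps26b, and it lies outside the peak for Vps29 and Vps35. Vps26a has 4 matches to GGGCGG of the SP and KLF factors and 1 E-box. Vps35 has 2 matches to CCAAT of NF-Y, 1 on each strand. In the Vps29 sequence none of the 10 motifs occurs.

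A gene-proximal peak was present at 83 of the 118 genes (70.3%). Of all protein-coding genes, 8850 had one, which is 39.6%. The share was 87.1% for Vps genes (27 of 31), 74.2% for Snx genes (23 of 31) and 58.9% for Rab genes (33 of 56). All 3 families thus lay above that share, and the Rab genes were nearest to it. There were 20 genes with 2 or more gene-proximal peaks (16.9%), against 10.1% of all protein-coding genes. Among the genes with a peak alone, the shares with 2 or more were alike, at 24.1% and 25.5%. Several peaks need not be separate sites. Listed peaks of the same gene overlapped at Rab1b, Rab5c, Rab14, Rab24, Rab35, Vps26b, Vps72, Snx1, Snx5 and Snx11. The shares with 2 or more were not recomputed with such peaks merged. A peak inside the gene and beyond 1 kb of every TSS was rare, at 7 gene records (5.93%) against 4.28%. These 7 were Rab5a, Rab31, Vps13a, Snx10, Snx15 and both records of Snx29.

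**Figure D1:**
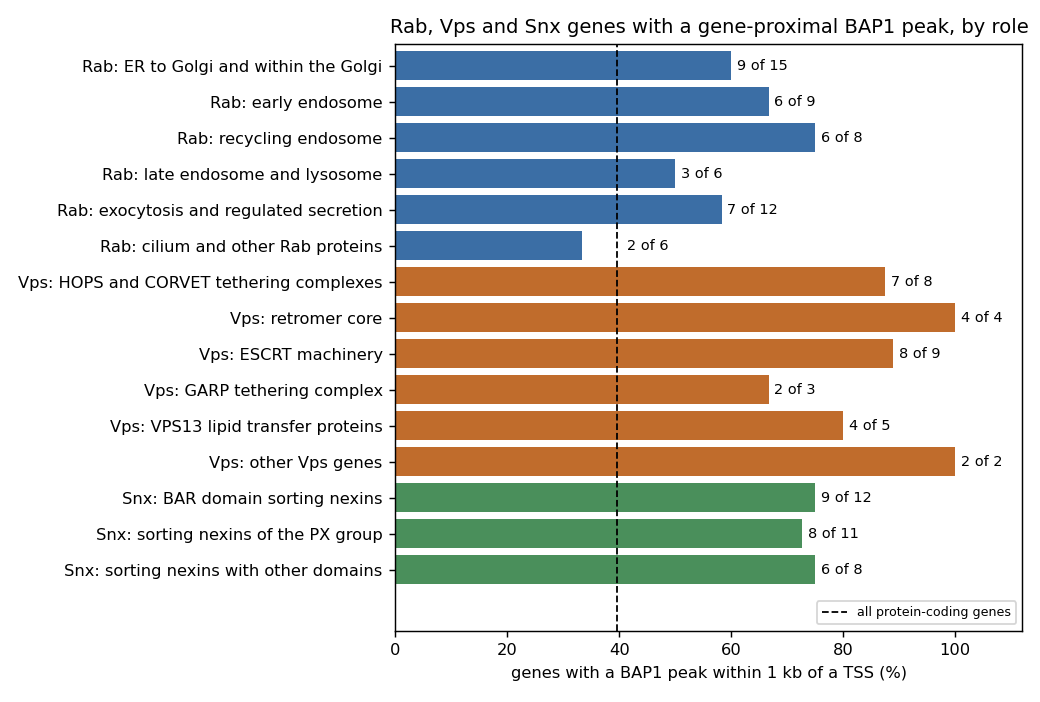
Percentage of genes with a BAP1 peak middle within 1 kb of a TSS (x axis) for each role within the Rab, Vps and Snx families (bars, with counts). The dashed line is all protein-coding genes at 39.6%, and 14 of the 15 roles reach beyond it, the exception being the cilium and other Rab proteins with 2 of 6.

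Rab proteins of the ER and Golgi had a peak at 9 of 15 genes. Rab1 and Rab1b, which act in transport from the ER to the Golgi, each had 2 peaks, at 2 and -361 bp and at -63 and 79 bp from the TSS, where negative values are upstream. Rab2a, which acts between the Golgi and the ER, had 2 peaks as well, at -51 and 491 bp. Its paralog Rab2b had 1, at 72 bp. Peaks were also present at Rab6 of retrograde Golgi transport (-10 bp), Rab18 (-73 bp), Rab30 (-109 bp), Rab33b (162 bp) and Rab43 (-105 bp). The peak of Rab30 was nearer to a noncoding RNA on the other strand, at 26 bp. No gene-proximal peak was found at Rab6b, Rab19, Rab33a, Rab36, Rab39 and Rab39b.

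Rab proteins of the early endosome had a peak at 6 of 9 genes, and all 3 forms of Rab5, which drive the fusion of early endosomes, were among them. The peak of Rab5a was 4 bp upstream of the TSS and that of Rab5b was 267 bp upstream, the longest distance of a nearest gene-proximal peak among the Rab genes. Rab5c had 2 peaks, at -16 and -128 bp. Rab20 (-43 bp), Rab22a (28 bp) and Rab24 (-9 and -147 bp) also had one, the last of them a Rab linked to autophagy. Rab17, Rab21 and Rab31 had none.

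In the recycling endosome the count was 6 of 8. Rab11a and Rab11b, which act in slow recycling, had peaks at -3 bp and at -73 and 283 bp. Rab4a and Rab4b, which act in fast recycling, had 1 peak each, at -40 and -67 bp. Rab14 (50 and -65 bp) and Rab35 (-64 and -99 bp) had 2 each. Rab25, the epithelial relative of Rab11, and Rab15 had no gene-proximal peak.

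Of the Rab proteins of late endosomes and lysosomes, 3 of 6 had a peak. These were Rab7, which directs late endosomes to lysosomes (-41 bp), Rab9, which acts in the return of receptors to the Golgi (-107 bp), and Rab12 (-2 bp). Rab9b was without one, as were Rab32 and Rab38, a related pair known from melanosomes.

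Of the Rab proteins of exocytosis and regulated secretion, 7 of 12 had a peak. They were Rab3a (-74 bp) and Rab3d (-12 bp) of regulated secretion, Rab8a (-31 bp), Rab8b (-58 bp) and Rab10 (-74 bp) of transport to the plasma membrane, Rab13 (13 bp) and Rab37 (-28 bp). Each of the 7 peaks covered a TSS, which for Rab37 was an alternative one 62726 bp from that of its longest transcript, so that Rab37 had no gene-proximal peak when 1 TSS per gene was used. Rab3b, Rab3c, Rab26, Rab27a and Rab27b had none, and the last of these are the Rab proteins of lysosome-related secretory granules.

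The remaining 6 Rab genes, grouped as the cilium and other Rab proteins, had 2 with a peak. Rab28 carried peaks at -18 and -175 bp, and Rab40c, whose protein has a SOCS box, at -70 and -344 bp. Rab23, Rab34, Rab40b and Rab44 had none.

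The genes grouped with HOPS and CORVET, Vps33b included, had a peak at 7 of 8. The 4 genes of the shared core, Vps11 (-40 bp), Vps16 (187 bp), Vps18 (-14 bp) and Vps33a (-33 bp), all had one. So did Vps33b, a relative of Vps33a (-34 bp), the CORVET subunit Vps8 (-14 bp) and the HOPS subunit Vps39 (-5 bp). Vps41, the other subunit particular to HOPS, had no gene-proximal peak, and the nearest lay 679 kb away.

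All 4 genes of the retromer core, the trimer that selects cargo on endosomes, had a peak. Vps26a had 1 (-52 bp), Vps26b had 2 (-15 and -154 bp) and Vps29 had 2 (125 and -186 bp). The peak of Vps35, the scaffold of the trimer, was 356 bp upstream, the longest distance when the nearest peak of each of the 83 genes is taken. ESCRT subunits had a peak at 8 of 9 genes, all of which covered the TSS and lay between -68 and 16 bp. They were Vps28, Vps37a, Vps37b and Vps37c of ESCRT-I, Vps25 and Vps36 of ESCRT-II, and the ATPases Vps4a and Vps4b that disassemble ESCRT-III. Vps4a had a second peak at 275 bp. Vps37d was the ESCRT subunit without one.

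Of the GARP subunits, Vps52 (14 bp) and Vps53 (-89 bp) had a peak and Vps54 had none. All 4 genes of the VPS13 lipid transfer proteins had one, at -74 and 417 bp in Vps13a, 12 bp in Vps13b, -30 bp in Vps13c and -86 bp in Vps13d. The second record of Vps13d, a short model inside the end of the gene, had none. Vps45, which regulates SNARE proteins, had a peak at -96 bp. Vps72 had peaks at -16 and -151 bp and counts by its name, although its protein is known as a subunit of chromatin remodeling complexes.

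Of the sorting nexins with a BAR domain, 9 of 12 had a peak. Snx1, Snx2, Snx5 and Snx6, which form the dimers that tubulate endosomes, all had one. Snx1 carried 4 gene-proximal peaks, the highest count among the 118 genes, at -13, -14, 31 and -271 bp from the nearest of its 7 annotated TSSs. Those at -13 and 31 bp overlapped each other. Snx5 had 2 (-9 and 62 bp), Snx2 had 1 (-94 bp) and Snx6 had 1 (-14 bp). Snx4, Snx7 and Snx30, a related group with roles in recycling and autophagy, had peaks at -46, -78 and -38 bp, and Snx8 and Snx32 at -86 and -229 bp. Snx9, Snx18 and Snx33, which make up the SH3-domain subfamily of clathrin-mediated endocytosis, had none.

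Sorting nexins of the PX group, which lack a BAR domain, had a peak at 8 of 11 gene records. Snx11 (-13 and -162 bp) and Snx16 (-21 and 220 bp) had 2 each. Snx3, a partner of retromer, had its peak at 105 bp, Snx12 at -86 bp, Snx20 at 21 bp and Snx21 at -30 bp. Snx10 had one at 315 bp. For Snx29 the record at the start of the gene had a peak at -53 bp and the downstream record had none. Snx22 and Snx24 had none. Of the sorting nexins with other domains, 6 of 8 had a peak. The subfamily with a PXA domain was complete, with Snx13 at -67 and 256 bp, Snx14 at -27 bp, Snx19 at -4 bp and Snx25 at -344 bp. Snx15 (41 bp) and Snx17 (-128 bp) were the other two. Snx27, which links retromer to cargo with a PDZ-binding motif, and Snx31 had none.

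The peaks lay close to the TSS. The median position of the nearest gene-proximal peak was -30.0 bp, against -32.0 bp for all protein-coding genes with one. It was -40.0 bp for Rab, -27.0 bp for Vps and -30.0 bp for Snx genes, which is a small difference beside the spread within each family. The middle was upstream of the TSS at 68 of 83 genes (81.9%), against 75.0% for all protein-coding genes with a peak. The peak covered a TSS at 70 of them (84.3%), against 77.7%, and its middle was within 200 bp at 78 (94.0%), against 89.6%. The nearest to a TSS were Rab1 (2 bp), Rab12 (-2 bp) and Vps4a (-2 bp). Taking the nearest peak of each gene, the farthest were Vps35 (-356 bp), Snx25 (-344 bp) and Snx10 (315 bp).

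**Figure D2:**
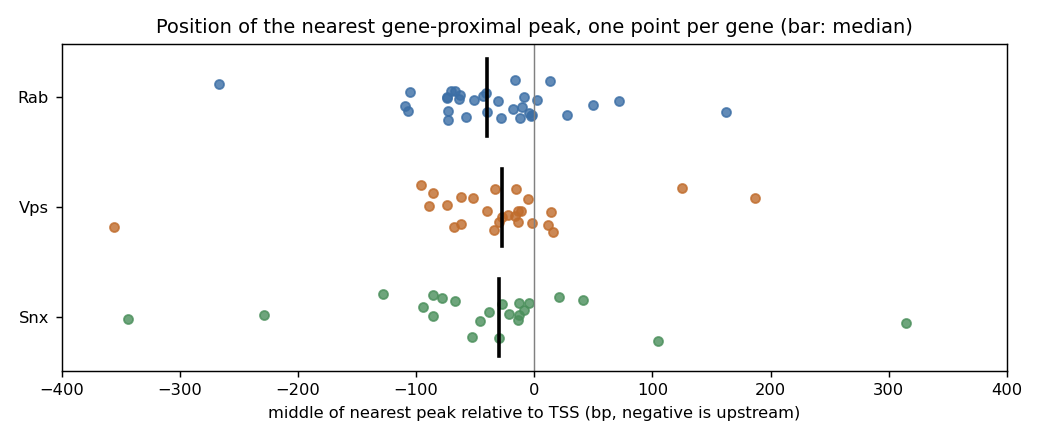
Middle of the nearest gene-proximal BAP1 peak relative to the TSS in bp (x axis, negative is upstream) for the 33 Rab, 27 Vps and 23 Snx genes with one, 1 point per gene, with black bars at the medians of -40.0, -27.0 and -30.0 bp. Points lie from -356 to 315 bp, and 78 of the 83 are within 200 bp.

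The threshold of 1 kb split the genes without a doubtful case. The gene just inside was Vps35, at 356 bp, and the gene just outside was Rab25, whose nearest peak was 4168 bp upstream. Between these distances lay the nearest peak of 0 of the 118 genes and of 946 protein-coding genes (4.23%). Of the 35 genes without a gene-proximal peak, 24 had their nearest peak within 50 kb (68.6%) and 11 had none in that range. Of all protein-coding genes without one, 38.5% had their nearest peak within 50 kb. In 23 of the 35 (not counted for all protein-coding genes) the nearest peak was within 1 kb of the TSS of another gene. That other gene was Lamtor2, of the lysosomal Ragulator complex, for Rab25 (4168 bp), Rpl23a for Rab34 (4810 bp), Aifm1 for Rab33a (5726 bp) and a small nucleolar RNA for Rab26 (5607 bp). It was Imp3 for Snx33 (8979 bp), Ppib for Snx22 (9635 bp), Fntb, a subunit of protein farnesyltransferase, for Rab15 (14.8 kb), and Wbscr22 for Vps37d (14.1 kb). The nearest peak was at no TSS for 12 genes, among them Rab17 (5429 bp), Rab21 (12.9 kb), Rab38 (19.9 kb), Snx18 (31.0 kb), Rab32 (33.8 kb) and Snx9 (93.7 kb).

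The more distant cases were further apart from any peak. The distance was 679 kb for Vps41, as given above, 56.8 kb for Vps54, 59.3 kb for Rab27a, 76.2 kb for Snx27, 90.0 kb for Rab6b, 97.7 kb for Rab31 and 127 kb for Rab9b. It was 389 kb for Rab27b, and 1041 kb for Rab3c, the longest of all. For Snx24 the nearest peak was that of Snx2, at 69.4 kb. The remaining genes of the 35 had their nearest peak between 9.09 kb (the downstream record of Snx29) and 48.9 kb (Snx31), including Rab23 (19.7 kb), Rab36 (22.3 kb), Rab3b (31.2 kb), Rab40b (33.1 kb), Rab39 (39.0 kb), Rab19 (39.1 kb), Rab44 (39.5 kb) and Rab39b (41.8 kb), and 25.1 kb for the short record of Vps13d.

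**Figure D3:**
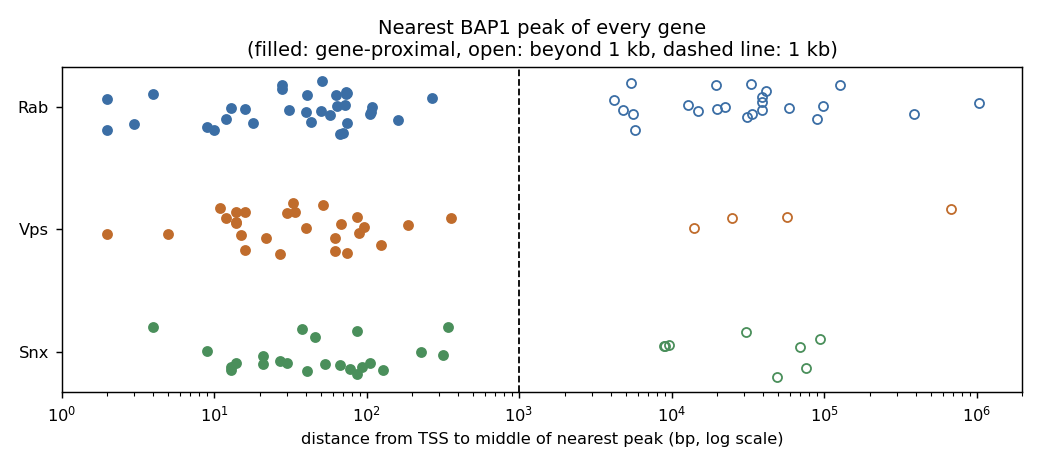
Distance from the TSS to the middle of the nearest BAP1 peak in bp on a log axis, for all 118 genes by family, 1 point per gene (filled for a gene-proximal peak, open beyond 1 kb, dashed line at 1 kb). The points form separate clouds, with none between 356 and 4168 bp.

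Close paralogs were taken as genes that share a family name and number, which gave 18 sets with 43 genes. In 10 sets every gene had a peak, in 2 sets none had, and 6 sets were mixed. The complete sets were Rab1, Rab2, Rab4, Rab5, Rab8, Rab11, Vps4, Vps13, Vps26 and Vps33. The sets with none were Rab27 and Rab39. In the mixed sets, Rab3a and Rab3d had a peak and Rab3b and Rab3c did not, Rab6 had one and Rab6b did not, and Rab9 had one and Rab9b did not. Rab33b and Rab40c had one where Rab33a and Rab40b did not. Vps37a, Vps37b and Vps37c had one where Vps37d did not. The contrast between paralogs at the level of RNA was not tested.

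For 14 of the 83 genes (16.9%) the nearest peak was also within 1 kb of a TSS of another protein-coding gene, against 24.4% of all protein-coding genes with a peak. In 10 of the 14 the partner faced the gene head to head on the opposite strand. For Rab6, Snx5, Snx25 and Vps16 the partner was also on the opposite strand, but the pair overlapped. Among the head-to-head genes were 3 of the 4 retromer genes whose sequences are given above. Vps26b shared its peak with Ncapd3, a condensin II subunit (distances of 15 and 66 bp), Vps29 with Rad9b, a paralog of the checkpoint gene Rad9a (125 and 352 bp), and Vps35 with Orc6, a subunit of the origin recognition complex (356 and 237 bp). The TSSs of these pairs were 81, 227 and 119 bp apart. Both Rab13 and Vps52 shared a peak with a gene for a ribosomal protein, Rps27 (13 and 57 bp) and Rps18 (14 and 109 bp). Rab24 shared one with Prelid1 (9 and 66 bp), Rab2b with Tox4 (72 and 92 bp), and Rab6 with Mrpl48 (10 and 238 bp). Snx5 shared one with 8430406I07Rik (9 and 15 bp) and Snx25 with 4933411K20Rik (344 and 730 bp).

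The partner was the nearer one in 4 more of the 14 genes, as it was for Vps35. Vps37a was 27 bp from the middle of its peak and Cnot7, a deadenylase, 2 bp. The values were 89 bp for Vps53 and 65 bp for Fam57a, 187 bp for Vps16 and 96 bp for Fam113a, and 128 bp for Snx17 and 40 bp for Eif2b4, a translation initiation factor. Counting noncoding genes, Rab30 and Snx25 were added, so that 7 of the 83 genes (8.43%) had a peak nearer to another gene, against 12.1% of all protein-coding genes with a peak. A peak between neighboring TSSs cannot be assigned to either gene from its position. By annotation alone, 15 of the 118 genes had a protein-coding neighbor head to head within 1 kb (12.7%), against 10.3% of all protein-coding genes. A peak was present at all 15 of them and at 68 of the other 103 (66.0%). For all protein-coding genes the shares were 85.5% with such a neighbor and 34.3% without.

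Most of the genes had promoters rich in CpG. The observed over expected CpG ratio was computed for the 1 kb centred on the TSS of the longest transcript. Its median was 0.741 for the 118 genes and 0.546 for all protein-coding genes. It was 0.754 for those with a peak and 0.678 for those without, against 0.761 and 0.295 for all protein-coding genes. The genes without a peak were thus far above other protein-coding genes without one. Within families the difference was seen in the Rab genes (0.763 with and 0.529 without a peak), was small in the Vps genes (0.785 and 0.730, with 4 records without a peak), and was in the other direction in the Snx genes (0.739 and 0.769). Snx18 (1.038), Snx9 (0.965), Snx27 (0.901) and Snx24 (0.900) had high ratios and no peak, as had Rab23 (0.996), Rab21 (0.903) and Vps54 (0.910). Conversely, Snx20 had a peak with a ratio of 0.239.

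**Figure D4:**
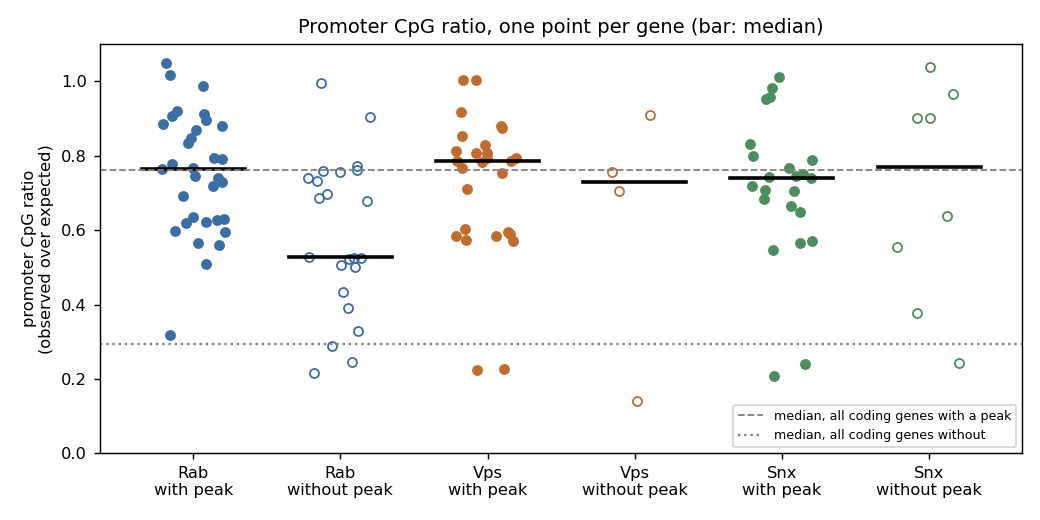
Promoter CpG ratio, observed over expected (y axis), of Rab, Vps and Snx genes with (filled) and without (open) a gene-proximal BAP1 peak, 1 point per gene, black bars at the medians. The Rab medians are 0.763 and 0.529, and the grey lines mark all protein-coding genes with (0.761) and without (0.295) a peak. Without a peak, 1 Vps gene and 3 Snx genes lie above 0.9, as do Rab21 (0.903) and Rab23 (0.996).

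Genes were also compared with protein-coding genes of a like CpG ratio. At 0.8 and above, 27 of 34 had a peak (79.4%), against 76.5%. From 0.6 to 0.8 it was 37 of 49 (75.5%) against 64.4%, and from 0.4 to 0.6 it was 14 of 22 (63.6%) against 32.0%. The difference from the background was thus small in the highest class and larger in the lower ones for the families together, but it was not so in each family. At 0.8 and above, 5 of 9 Snx genes had a peak (55.6%), below the 76.5% of all protein-coding genes, against 12 of 14 Rab genes (85.7%) and 10 of 11 Vps genes (90.9%). From 0.6 to 0.8 the share was 62.5% for Rab genes (15 of 24), close to the background of 64.4%, and 81.8% for Vps and 92.9% for Snx genes. From 0.4 to 0.6 a peak was present at 5 of 12 Rab (41.7%), 6 of 6 Vps and 3 of 4 Snx genes, against 32.0%. In the class from 0.2 to 0.4 the families together had 5 of 12 (41.7%) against 11.7%, with 1 of 6 Rab (16.7%), 2 of 2 Vps and 2 of 4 Snx genes. Of these 5 genes, 4 had their peak at another TSS than that of the longest transcript, namely Rab2b, Vps13d, Vps72 and Snx21, where the ratios were 0.741, 0.659, 0.668 and 0.777. Around the TSS nearest to the peak the median ratio was 0.766 for the 83 genes and 0.772 for all protein-coding genes with a peak. Genes with more annotated TSSs have more places for a peak to be counted. With 1 annotated TSS, 22 of 39 genes had a peak (56.4%), against 23.8%, and with 4 or more it was 38 of 50 (76.0%), against 61.6%.

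Motif matches in the nearest peaks of the 83 genes were set beside those in all peaks of the list and in its 10073 gene-proximal peaks, all 200 bp long. These 10073 lie within 1 kb of a TSS of any annotated gene, noncoding ones included, and hold second peaks of a gene too. The nearest peaks of all protein-coding genes were not searched as a set. A match says only that these letters occur. TCACGTGA was in 5 of 83 peaks (6.02%), against 1.50% of gene-proximal and 1.22% of all peaks. These were the 4 sequences above and the peak of Snx2. TCACGTGA contains the E-box CACGTG, which was in 11 peaks (13.3%), against 8.06 and 7.04%. All 5 peaks with TCACGTGA are among these 11, and the others were those of Rab20, Snx8, Snx32, Vps8, Vps26a and Vps37b. The share of E-boxes outside TCACGTGA was not compared with the background. ATGGCGG of YY1 was in 14 peaks (16.9%), against 9.13 and 7.28%, and 8 of the 14 belonged to Rab genes (Rab9, Rab14, Rab22a, Rab24, Rab28, Rab30, Rab37 and Rab40c). By family it was in 24.2% of Rab, 18.5% of Vps and 4.35% of Snx peaks, the last below both backgrounds. CCGGAAG of the ETS factors was in 21 (25.3%), against 20.2 and 16.8%. Its shares were 33.3% of Vps, 30.4% of Snx and 15.2% of Rab peaks, with Rab below both backgrounds. GGGCGG of the SP and KLF factors was the most frequent, in 54 (65.1%), against 68.6 and 59.5%. It was in 75.8% of Rab, 73.9% of Snx and 44.4% of Vps peaks.

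CCAAT of NF-Y was in 27 peaks (32.5%), against 30.0 and 28.5%, and likewise in 42.4% of Rab, 43.5% of Snx and 11.1% of Vps peaks. GCATGCGC of NRF1 was in 4 peaks (4.82%), against 5.80 and 4.82%. ACTACAA of ZNF143 and THAP11 was in 4 (4.82%), against 2.92 and 2.54%, and TGACGTCA of CREB and ATF in 3 (3.61%), against 3.35 and 2.80%. TATAAA was in 1 peak, at Snx1, against 2.41% of gene-proximal and 4.73% of all peaks. The 200 bp around the TSS of the longest transcript were searched as well, so that genes without a peak could be included. TCACGTGA was there in 7 of the 83 genes with a peak (8.43%), in 1 of the 35 without (2.86%) and in 0.805% of all protein-coding genes. The 7 were Rab3a, Rab5a, Rab24, Snx2, Vps11, Vps16 and Vps33a, and the gene without a peak was Rab21. For ETS, NRF1, YY1, the E-box, CREB and ATF, and SP and KLF, genes with a peak also had the highest of the 3 shares. For 3 motifs the genes with a peak were below all protein-coding genes. These were CCAAT (21.7% against 26.4%), ACTACAA (1.20% against 2.10%) and TATAAA (2.41% against 8.28%).

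**Figure D5:**
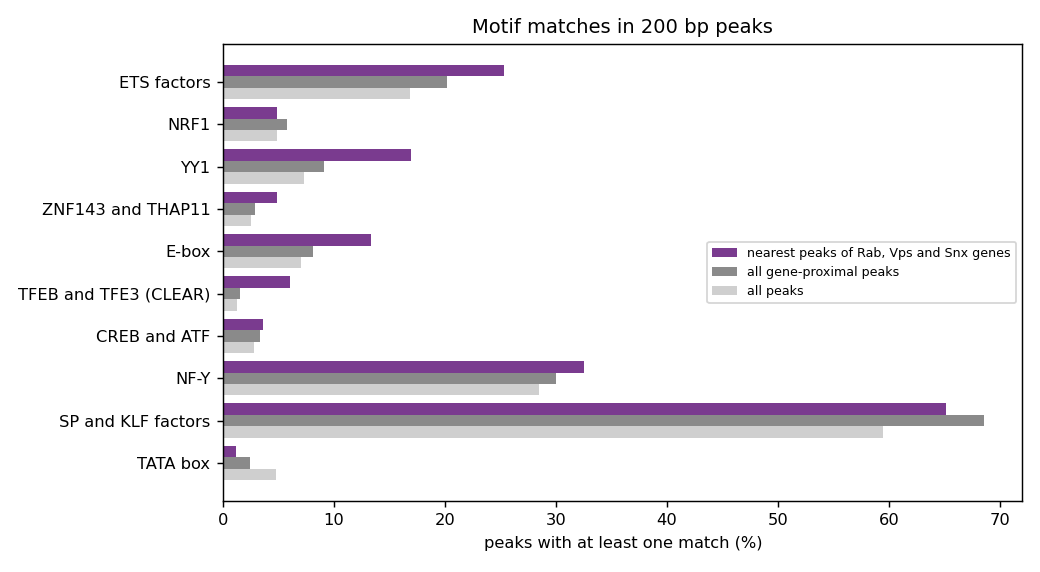
Percentage of 200 bp peaks with at least 1 match to each motif (x axis), for the nearest peaks of the 83 Rab, Vps and Snx genes, all 10073 gene-proximal peaks and all 13164 peaks. The CLEAR (6.02% against 1.50%), YY1 (16.9% against 9.13%) and E-box (13.3% against 8.06%) bars are longer for the 83 genes than for gene-proximal peaks, and those of NRF1, SP and KLF factors and the TATA box are shorter. CLEAR contains the E-box, so its matches are counted in the E-box bars as well.

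A list of 118 genes that work with these proteins was scored in the same way, and 87 of them had a gene-proximal peak (73.7%), against 39.6% of all protein-coding genes. The exchange factors that activate Rab proteins had one at 17 of 23 genes, and those without were Dennd1b, Dennd1c, Dennd5b, Rab3il1, Rin2 and Rin3. Among GTPase-activating proteins it was 24 of 33. Those without were Evi5, Rabgap1l, Sgsm1, Tbc1d4, Tbc1d8, Tbc1d9, Tbc1d10c, Tbc1d12 and Tbc1d30, and the nearest peak of Tbc1d10c was just outside, at -1013 bp. The class III PI3-kinase complex, which makes the lipid that PX domains bind, had a peak at 5 of 5 genes. The ESCRT partners of the Vps subunits had one at 16 of 18, with Chmp4c and Fam125b without. The factors that prenylate and recycle Rab proteins had one at 6 of 8, and Chm and Chml, the Rab escort proteins, had none. Retromer and WASH partners had one at 4 of 6, with Ccdc53 and Sorl1 without. Rab effectors had one at 16 of 26 (61.5%). Those without were Rab11fip4, Rab11fip5, Rilp, Rilpl1, Rph3a and Sytl1 to Sytl5. Tbc1d5 was listed both as a GTPase-activating protein and as a retromer partner.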

How the data were processed

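ChIP-Seq libraries of Ba/F3 cells were sequenced in paired-end mode. The authors mapped the reads to mm9 by Bowtie 1.0.0, and used MACS 1.4.2 for peak detection against input DNA (versions from the submitters' processing notes). The deposited columns give each peak's chromosome, start, end and name, in 1 list for both samples immunoprecipitated for BAP1 or FLAG. The threshold and the rule that joined both samples are not given in the sources used here, and both decide which genes have a peak. Each immunoprecipitation was sequenced once, and the samples were assigned from their titles.

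From there, peak middles were compared with the TSSs of GENCODE M1 (NCBIM37, the same build), with a window of 1 kb. The mitochondrial genes were left out. CpG ratios, sequences and motif matches were read from that genome. All genes of the 3 families were described, and those with several peaks, without a peak, with a shared peak, nearest to or farthest from the TSS, or in mixed paralog sets were given with their values. The families, role lists, partner list and motifs were chosen with earlier results of these data known. Since the list holds no values per sample, counts were described and no test was made. The alternatives were other windows (500 bp, 2 kb and 5 kb), the edge of the peak, other choices of TSS, merging of peaks within 500 bp, other symbol rules, and assignment to the nearest gene only. Counting each symbol once was added after seeing the data.

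The scripts were tested on simulated data. The software was Python 3.11.15 with pandas 2.3.3, pysam 0.24.0 and matplotlib 3.10.9, bedtools 2.31.1 and samtools 1.23.1.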

Additional observations from a re-analysis of the deposited data

How the results depend on the processing

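The count of Rab, Vps and Snx genes with a gene-proximal peak, 83, was the same with a window of 500 bp or 2 kb, with the edge of the peak, with merged peaks and with each symbol counted once. It ranged from 76, when a peak counted only for the nearest gene, to 85 with a window of 5 kb. Over the 3 families, the 118 genes and all protein-coding genes, every one of the 49 alternative counts stayed within 1.5 times of the reported one. This limit is wide, and for the 118 genes, the Vps genes and the Snx genes a count above it was not possible. With assignment to the nearest gene only, the Vps count moved most, from 27 to 23, and the share of all protein-coding genes was 35.2%. The median position of the nearest peak, -30.0 bp, was -33.5 bp with 1 TSS per gene and -33.0 bp with merged peaks. The difference in median CpG ratio between genes with and without a peak, 0.075, was 0.104 with 250 bp on either side of the TSS. A stricter peak threshold was not run, because the list holds no score, and no replicate could be left out. No paired analysis was possible because the results come from no test. A gene without a peak is one where none was listed at the threshold and depth of these samples, which are unknown here, and it cannot be told apart from one bound below that threshold.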

Other observations

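Some groupings were noticed after the values were seen, and are given as counts only. Rab27a, Rab27b and the Rab27 effectors of the partner list, Sytl1 to Sytl5 and Rph3a, had a gene-proximal peak at 0 of 8 genes, where 39.6% of all protein-coding genes had one. This set was put together after its genes were seen to lack a peak. The promoter CpG ratio was 0.526 for Rab27a and 0.390 for Rab27b, with a median of 0.482 for the 10 Rab effectors without a peak. In the CpG classes from 0.4 to 0.6 and from 0.2 to 0.4, 32.0 and 11.7% of all protein-coding genes had a peak. Rab27 and the effectors of the set act together in the docking of secretory granules. Of 4 further Rab27 effectors that were not in the list, Mlph, Myrip and Exph5 had none and Unc13d had a peak 12 bp from its TSS. The nearest peak was at -14674 bp from the TSS for Sytl1, -17185 bp for Sytl3, 62124 bp for Sytl2, -69231 bp for Rph3a, -77313 bp for Sytl4 and -222613 bp for Sytl5. Among the sorting nexins with a BAR domain, the SH3-domain subfamily had a peak at 0 of 3 genes and the others at 9 of 9. The promoters of that subfamily were not poor in CpG, with ratios of 1.038 for Snx18, 0.965 for Snx9 and 0.638 for Snx33.

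The genes with a peak were spread over the chromosomes. On chromosome 8 all 10 genes had one, and on chromosome X 2 of 5 had one (Rab9 and Snx12), where 47.9 and 23.6% of all protein-coding genes of these chromosomes did. Chromosomes 2 (7 of 7, against 41.7%), 19 (5 of 5, against 43.6%) and 14 (1 of 1, against 29.3%) were complete as well. Shares below that of chromosome X were found on chromosomes 13 (1 of 4, against 39.6%) and 1 (1 of 3, against 38.0%). The counts per chromosome are small, and they share the families described above.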
